A study of Mus musculus with 6 samples.

Results

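The Sox genes followed here are 6 transcription factor genes measured in RNA-seq of whole intervertebral discs (IVDs), namely Sox8 and Sox9 of the SoxE group, Sox5 and Sox6 of the SoxD group, and Sox4 and Sox11 of the SoxC group. They are 6 of 43472 gene symbols in the count files and were taken by symbol. Discs of strain C57B6/J mice at postnatal day 20 gave 6 libraries, 3 for the Col2Cre;Adgrg6 f/f genotype (mutant) and 3 for controls. Each pool held the discs of 2 to 3 mice, from thoracic level 8 to lumbar level 5, and the sex of the mice is not given. The mutant mice carry a Cre driven by type II collagen sequences and 2 floxed copies of Adgrg6, an adhesion G protein-coupled receptor. This Cre acts in all disc tissues and is not limited to them, since vertebral bone and its periosteum recombine too. Control mice have the genotype label wild type, are named Col2Cre controls in the titles and are Cre (-) littermates in the study's text, and none of these gives the floxed alleles of the control mice. The pools are separate groups of mice, and p-values measure the spread between pools.

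SOX proteins bind the minor groove of DNA through an HMG box and bend it. SOX9 is required for cells to become chondrocytes and remain so, and it activates the genes of cartilage matrix directly. SOX5 and SOX6 have no activation domain of their own, bind DNA as dimers and help SOX9 to act at its enhancers in cartilage. As a pair, SOX5 and SOX6 are needed for the sheath of the notochord, the tissue from which the nucleus pulposus develops. SOX8 is the closest relative of SOX9, and SOX4 and SOX11 act in progenitor cells of the skeleton and nervous system. The comparison of mutant with control IVDs asks whether the loss of Adgrg6 is accompanied by a change of these genes before disc pathology is visible.

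The start of the HMG box, in the coding strand of the GENCODE M21 transcripts on GRCm38, is shown for each member because it is the part that the members share and by which reads could be mistaken between them. Each stretch has 72 bases and capitals mark the 37 bases that are identical in all 6 members.
Sox9: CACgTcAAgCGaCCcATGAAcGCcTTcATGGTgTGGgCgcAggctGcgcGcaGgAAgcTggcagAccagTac
Sox8: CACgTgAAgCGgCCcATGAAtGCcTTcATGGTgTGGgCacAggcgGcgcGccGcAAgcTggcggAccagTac
Sox5: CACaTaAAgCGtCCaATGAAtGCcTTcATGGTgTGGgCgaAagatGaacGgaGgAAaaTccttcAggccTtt
Sox6: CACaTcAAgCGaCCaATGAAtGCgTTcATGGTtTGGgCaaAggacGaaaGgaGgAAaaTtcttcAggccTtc
Sox4: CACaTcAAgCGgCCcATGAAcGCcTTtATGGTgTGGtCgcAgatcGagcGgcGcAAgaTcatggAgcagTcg
Sox11: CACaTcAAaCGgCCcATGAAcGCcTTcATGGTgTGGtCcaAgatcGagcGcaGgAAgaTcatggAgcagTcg

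These stretches lie at chr11:112782894-112782965 on the plus strand for Sox9 and, on the minus strand, at chr17:25570160-25570231 for Sox8, chr6:143841211-143841282 for Sox5, chr7:115489700-115489771 for Sox6, chr13:28952779-28952850 for Sox4 and chr12:27342196-27342267 for Sox11. Over the 237 coding bases of the box, identity was 85.2% between Sox8 and Sox9, 82.3% between Sox5 and Sox6 and 89.0% between Sox4 and Sox11. Between groups it was lower, from 52.3% for Sox6 and Sox8 to 72.2% for Sox9 with either Sox4 or Sox11. The longest run of identical bases in any transcripts of 2 members was 48 bases, between Sox4 and Sox11, and each of the other 14 pairs shared at most 27.

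The members differ widely in gene structure. Sox9 (chromosome 11, 112782224 to 112787760), Sox8 (chromosome 17, 25565892 to 25570686), Sox4 (chromosome 13, 28948919 to 28953713) and Sox11 (chromosome 12, 27334264 to 27342574) span 4.79 to 8.31 kb. Sox4 and Sox11 consist of 1 exon. Sox5 (chromosome 6, 143828425 to 144781977) spans 954 kb and Sox6 (chromosome 7, 115470872 to 116038796) spans 568 kb, of which merged exons make up 1.51% and 2.61%. What was counted within those spans matters for the levels of both genes. Of 143 protein-coding genes that lie inside an intron of a longer gene on the same strand, 140 (97.9%) received 0 counts throughout, while 20.4% of 314 inside an intron of a gene on the opposite strand did. Counts on Sox5 and Sox6 may therefore include reads from introns. Genes on opposite strands were given separate counts, but the sources used here do not state whether the libraries kept strand, so that counts listed for an antisense gene may include reads of its partner.

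Between 9061491 and 12017008 counts fell on genes in a library, so that a value near 1 CPM (the count scaled to library size) rests on about 10 counts, and intervals cover 3 pools per genotype. Cartilage identity was plain in every library, with the 6 cartilage markers at a summed level of 71965 to 134092 CPM, most of it Col2a1. Control replicate 3 was the lowest, and the other libraries were at 106598 CPM or more. All 8 nucleus pulposus markers and all 6 markers of tendon and outer annulus had counts. Control replicate 1 stood apart in skeletal muscle genes, with a summed level of 4042 CPM for 8 genes against 198 to 284 CPM in the other libraries. The targeted gene, listed as Gpr126, was at 106 to 138 CPM in mutant and 94.3 to 124 CPM in control libraries, counted over the whole gene, which does not isolate its floxed exons. In this bulk tissue fewer cells of a type and less RNA per cell cannot be told apart.

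Sox9 was the member with most counts and stood at rank 150 of all genes by mean CPM. Its level was 562, 574 and 398 CPM in control replicates 1, 2 and 3 and 660, 469 and 528 CPM in mutant replicates 1, 2 and 3. The lowest value was in control replicate 3 and the highest in mutant replicate 1, and the genotypes overlapped. The log2 fold change of mutant over control was 0.11 (standard error 0.23, 95% interval -0.39 to 0.62, adjusted p = 0.935 from edgeR), which leaves room for a fold between 0.761 and 1.53. Leaving out control replicate 3 turned it to -0.034, and leaving out mutant replicate 1 to -0.0018. The difference in this regulator of chondrocyte identity was within the spread between pools.

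Sox8, the other SoxE member, was at 64.4, 107 and 81.7 CPM in control and 92.3, 53.9 and 56.3 CPM in mutant libraries. Mutant replicates 2 and 3 lay below all controls, while mutant replicate 1 was above control replicates 1 and 3. The log2 fold change was -0.32 (standard error 0.26, 95% interval -0.89 to 0.25, adjusted p = 0.804 from edgeR). With 1 library left out it ranged from -0.58 without mutant replicate 1 (unadjusted p = 0.0371 from edgeR) to -0.13 without control replicate 2 (unadjusted p = 0.649 from edgeR). Without mutant replicate 2 it was -0.17. The antisense gene 2810468N07Rik begins inside Sox8 on the opposite strand and received 15.3% as many counts. Within a library, the log2 ratio of Sox8 to Sox9 counts ranged from -3.23 in mutant replicate 3 to -2.29 in control replicate 3, with a mean of -3.06 ± 0.20 in mutant and -2.61 ± 0.45 in control IVDs (SD, n = 3). Control replicate 1, at -3.13, lay below mutant replicates 1 and 2, so that the genotypes overlapped.

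**Figure D1:**
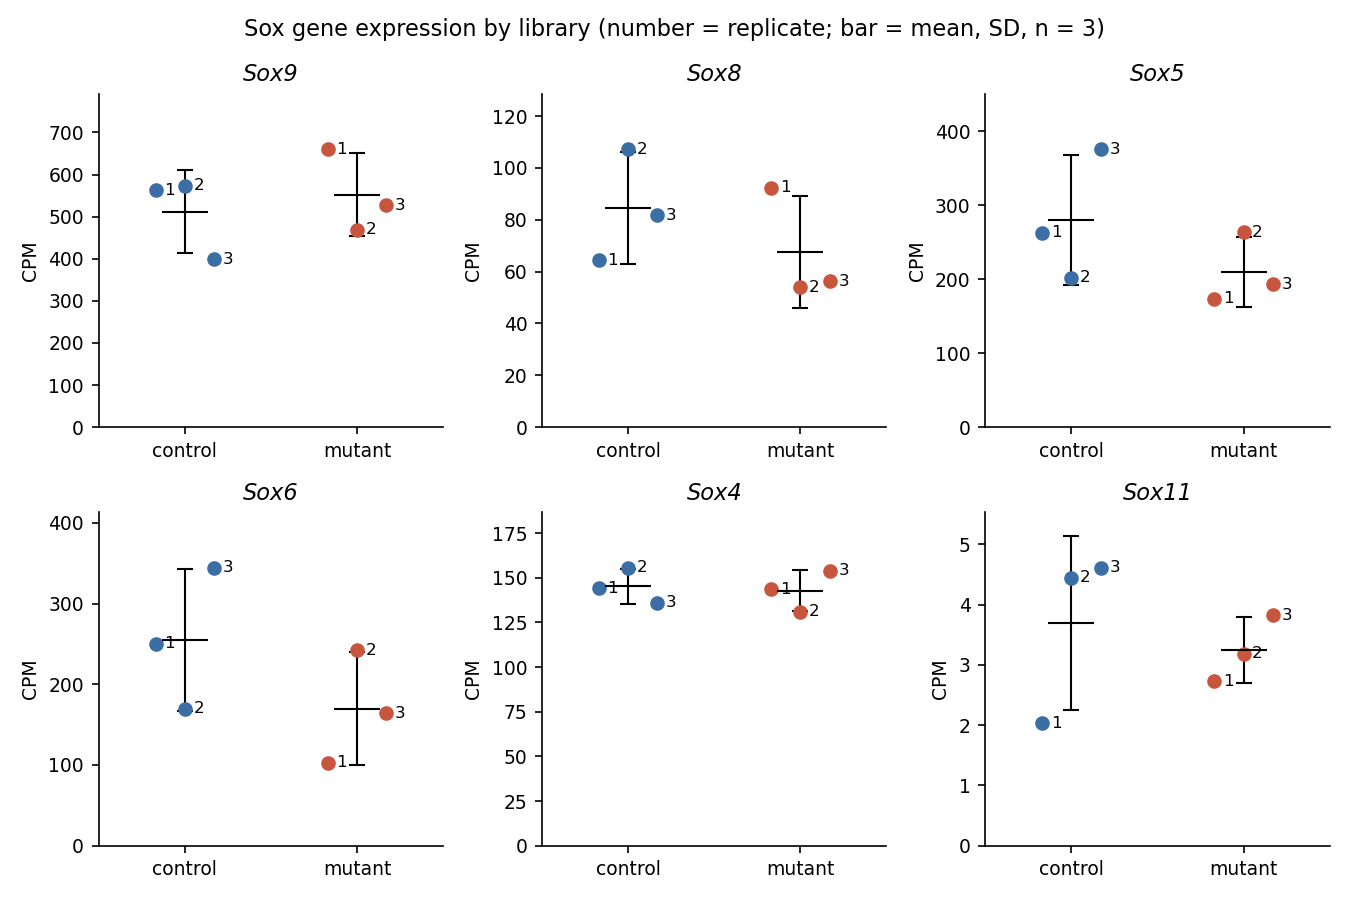
Level of each Sox member in CPM (vertical axis from 0) in the 3 control and 3 mutant libraries, with the replicate number beside each point and bars for mean and SD. The genotypes overlap for all 6 genes, Sox4 is nearly level across libraries, and Sox5 and Sox6 share the same highest library (control replicate 3) and the same lowest one (mutant replicate 1).

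Sox5 and Sox6, the SoxD genes that assist SOX9, had the lowest log2 fold changes among the members and varied together. Sox5 was at 263, 202 and 376 CPM in control and 174, 264 and 193 CPM in mutant libraries, a log2 fold change of -0.41 (standard error 0.26, 95% interval -0.99 to 0.16, adjusted p = 0.772 from edgeR). Sox6 was at 250.2, 169.5 and 345 CPM in control and 103, 242 and 164 CPM in mutant libraries, a log2 fold change of -0.59 (standard error 0.33, 95% interval -1.32 to 0.15, adjusted p = 0.742 from edgeR). In both genes control replicate 3 was highest and mutant replicate 1 lowest, mutant replicate 2 exceeded control replicate 2, and neither difference was beyond the spread between pools. The highest library had 2.16 times the level of the lowest for Sox5 and 3.35 times for Sox6. The SD of log2 CPM over the 6 libraries was 0.41 for Sox5 and 0.61 for Sox6, and 84.7% and 96.8% of tested genes within 2-fold of their level had a smaller one.

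The joint variation of Sox5 and Sox6 had a Pearson r of 0.95 and a Spearman rho of 0.94 over the 6 libraries, the highest Pearson r among the 15 pairs of members. Against Sox9 the r was -0.88 for both, the lowest of these pairs. All points of these descriptions share the same 6 libraries and scaling. In each library the counts of Sox5 exceeded those of Sox6, by a log2 ratio of 0.07 to 0.76 with the highest in mutant replicate 1. The log2 ratio of Sox5 to Sox9 ranged from -1.93 in mutant replicate 1 to -0.08 in control replicate 3, and that of Sox6 to Sox9 from -2.68 to -0.21 in the same libraries. The spread of these ratios within the controls was wider than the difference of the genotype means, mutant minus control, which was -0.51 for Sox5 and -0.73 for Sox6.

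Other long genes moved in the same libraries. Among 218 tested protein-coding genes that span over 500 kb, other than the members, the median deviation of log2 CPM from the gene's own mean was 1.04 in control replicate 3 and -0.81 in mutant replicate 1, and between -0.35 and 0.31 in the other libraries. Of these genes, 82.6% were highest in control replicate 3, 68.3% were lowest in mutant replicate 1, and 54.6% were both, as Sox5 and Sox6 were. Among 1377 genes of up to 5 kb, the class of Sox4 and Sox8, the share with both was 5.66%. The shift grew with span, with a median in control replicate 3 of 0.14 for genes of 100 to 200 kb and 0.39 for genes of 200 to 500 kb, and in mutant replicate 1 of -0.16 and -0.41. These long genes took 1.64% of counts in control replicate 3, 0.757% in mutant replicate 1 and 0.996% to 1.24% in the other libraries. The same libraries had the largest shares of reads not aligned, 18.9% in mutant replicate 1 and 15.2% in control replicate 3 against 12.0% to 14.0% in the others, and the part of this in the values was not tested. Short members varied with the medians of the 218 long genes too. The Pearson r with them was 0.78 for Sox5, 0.77 for Sox6, 0.74 for Sox11 and -0.86 for Sox9. It was -0.24 for Sox4 and 0.13 for Sox8.

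**Figure D2:**
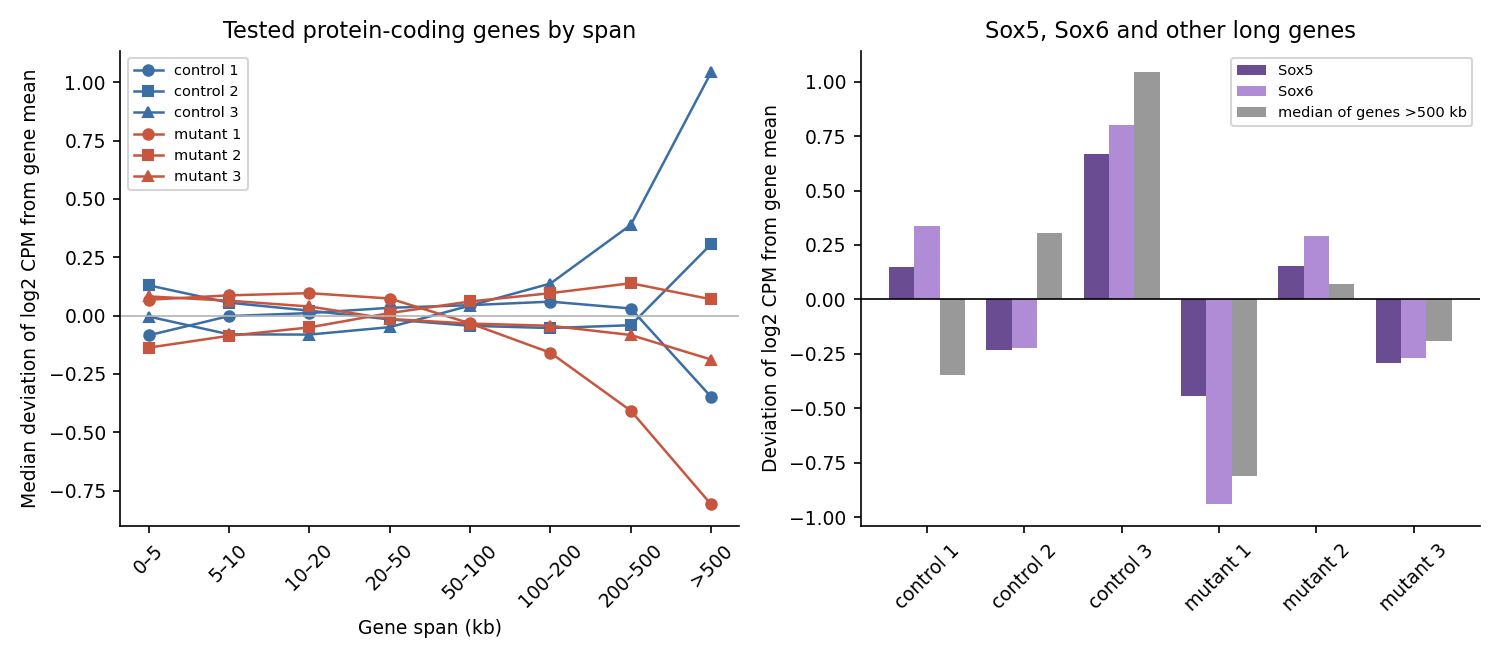
Left, the median deviation of log2 CPM from each gene's mean over the 6 libraries (vertical axis) for tested protein-coding genes in 8 classes of gene span in kb (horizontal axis), with 1 line per library. Right, the same deviation for Sox5, Sox6 and the median of the 218 genes over 500 kb. The libraries part most above 200 kb, with control replicate 3 up to 1.04 and mutant replicate 1 down to -0.81. Sox5 and Sox6 follow the long genes in these libraries but not in control replicates 1 and 2.

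The median log2 fold change of the 218 long genes was -0.81, and 92.2% of them had values below 0, compared with 51.6% of all genes tested. An unadjusted p under 0.05 was found for 35.3% of them, compared with 7.21% of all genes. The deviation of Sox5 minus the median of its class was 0.50, -0.54 and -0.38 in control and 0.36, 0.09 and -0.11 in mutant libraries, and that of Sox6 was 0.69, -0.53 and -0.24 in control and -0.13, 0.22 and -0.08 in mutant libraries. With the class median taken off, the difference of the genotype means, mutant minus control, was 0.25 for Sox5 and 0.03 for Sox6. The SD over controls was then 0.56 for Sox5 and 0.64 for Sox6, against 0.45 and 0.51 before. That over mutants was 0.24 and 0.19, against 0.31 and 0.62 before. When the trend of each library with gene span was removed in the fit, an alternative chosen after seeing the data, the log2 fold change was 0.22 for Sox5 (unadjusted p = 0.360 from edgeR) and -0.16 for Sox6 (unadjusted p = 0.489 from edgeR). Without control replicate 3 and mutant replicate 1 together, also chosen after seeing the data, the values were -0.023 and -0.046. The shift of the long genes and the values of Sox5 and Sox6 moved in the same libraries, and the part of gene span in them was not tested beyond these fits.

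Few counts were assigned to the antisense genes inside Sox5, and what share of them came from Sox5 transcripts was not tested. Sox5os2, within an intron of Sox5 on the opposite strand, was at 8.99, 8.77 and 12.6 CPM in control and 7.85, 7.997 and 5.31 CPM in mutant libraries, which is 3.46% of the counts of Sox5. Sox5os4 had 16, 15 and 45 counts in control and 3, 23 and 11 counts in mutant libraries. Sox5it, which shares the strand of Sox5, received 0 counts throughout. Control replicate 3 was highest for both antisense genes.

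Sox4 was the steadiest member. It was at 144, 156 and 136 CPM in control and 144, 131 and 154 CPM in mutant libraries, so that the highest was 1.19 times the lowest. Its SD of log2 CPM was 0.10, and 3.89% of the tested genes within 2-fold of its level had a smaller one. The log2 fold change was -0.025 (standard error 0.17, 95% interval -0.40 to 0.35, adjusted p = 0.980 from edgeR). The lincRNA gene Gm26735 overlaps Sox4 on the opposite strand and had 39.7% as many counts, with its own highest level in mutant replicate 2 (79.6 CPM) and control replicate 1 (78.8 CPM), while Sox4 was lowest in mutant replicate 2.

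Sox11, the other SoxC member, was close to the lower limit of what was tested, with 19 to 59 counts per library. It was at 2.03, 4.44 and 4.61 CPM in control and 2.73, 3.18 and 3.82 CPM in mutant libraries, a log2 fold change of -0.19 (standard error 0.47, 95% interval -1.23 to 0.85, adjusted p = 0.943 from edgeR). The mutant values lay within the range of the controls. At this depth a fold between 0.428 and 1.80 could not be distinguished, and without control replicate 3 the log2 fold change was 0.014.

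All 6 members passed the filter on low counts. With edgeR, 0 of the 6 had an adjusted p under 0.05, compared with 0.00619% of the 16152 genes tested, and 0 had an unadjusted p under 0.05, compared with 7.21%, made up of 2.89% higher and 4.32% lower in mutant IVDs. The groups did not overlap for 0 of the 6, compared with 11.4% of all genes. DESeq2 also gave 0 members by either measure, with a lowest adjusted p of 0.641. In edgeR an unadjusted value under 0.05 appeared for Sox6 without the filter on low counts (0.0272). It also appeared for Sox5 and Sox6 without control replicate 2 (0.0494 and 0.0407) and for Sox6 without mutant replicate 2 (0.0195). For Sox8 it appeared without mutant replicate 1 (0.0371) and without that library and control replicate 3 together (0.04997). Over all members and alternatives the adjusted p ranged from 0.468 to 0.9999.

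**Figure D3:**
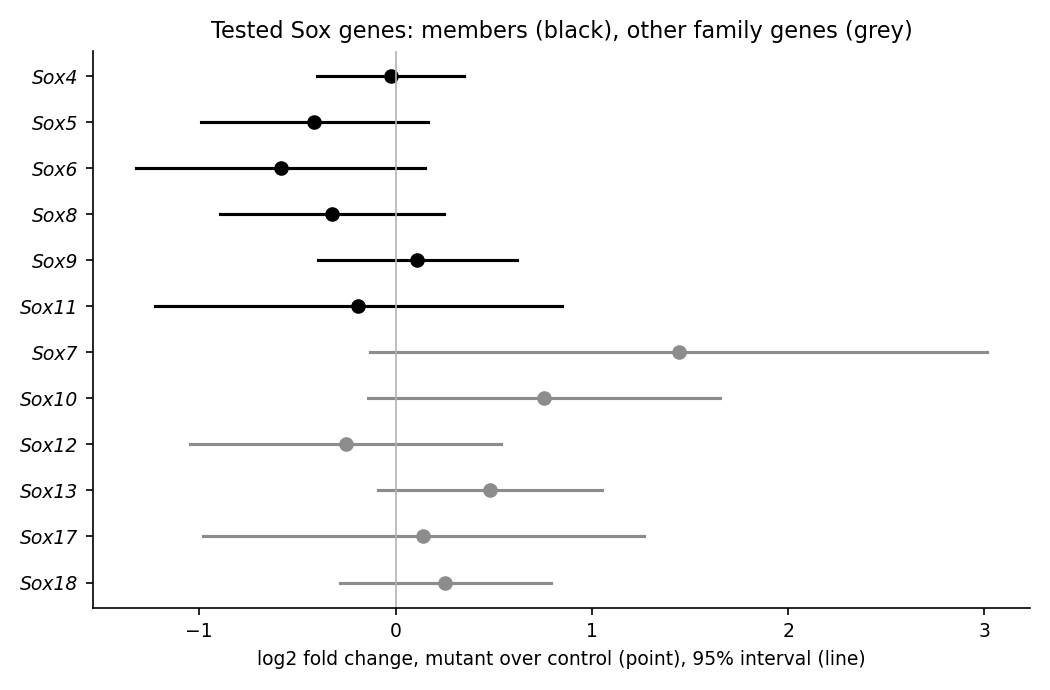
The log2 fold change of mutant over control (horizontal axis; point) with its 95% interval (line) for the 12 Sox genes tested, the 6 members in black and the other family genes in grey. All intervals cross 0, the narrowest being that of Sox4 (-0.40 to 0.35).

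Levels of different genes were compared as CPM per kb of merged exons. Sox9 was the highest at 129 ± 21.9 (SD over 6 libraries), with every library above all libraries of the other members. Sox4 followed at 30.0 ± 2.02, Sox8 at 24.4 ± 6.85, Sox5 at 17.1 ± 5.15 and Sox6 at 14.3 ± 5.72, and each of these neighbours overlapped in its range over libraries. Sox11 was the lowest member at 0.418 ± 0.121, below every library of the other members. With the longest transcript in place of merged exons Sox5 was at 33.8 and Sox6 at 24.5, so that Sox5 then stood above Sox4. Since reads from introns may be included, the levels of Sox5 and Sox6 per kb may not be those of spliced transcripts alone.

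**Figure D4:**
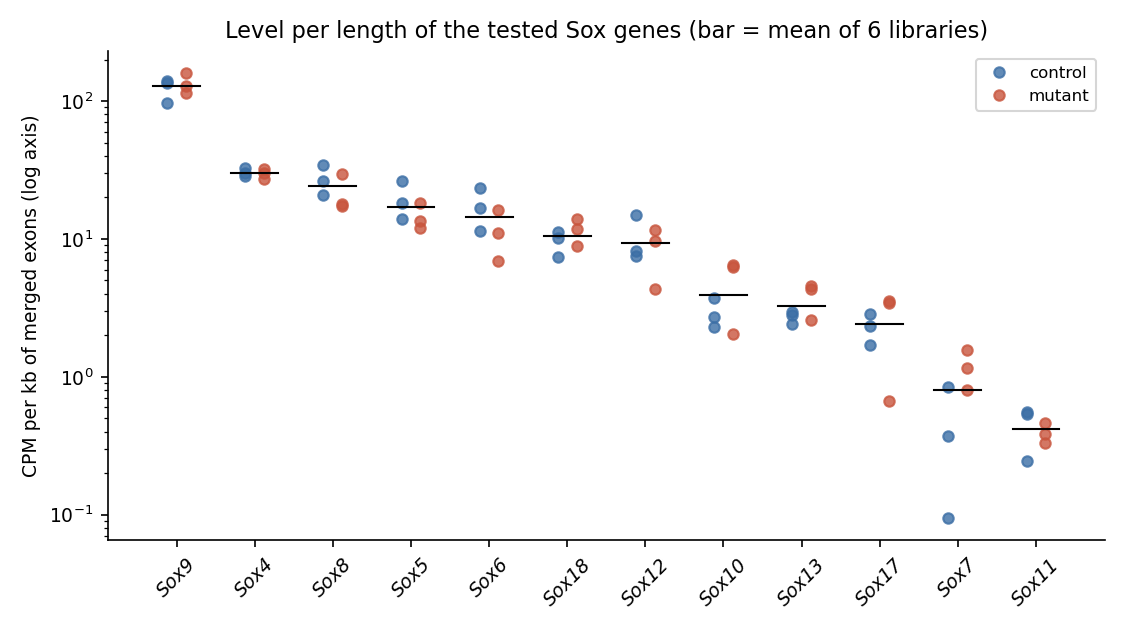
CPM per kb of merged exons (vertical axis, log scale) for the 12 tested Sox genes, with 1 point per library and a bar for the mean of the 6 libraries. Sox9 (mean 129) lies above all others, and Sox11 (mean 0.418) is the lowest of the 12.

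The rest of the family gives the setting. Of 14 other Sox genes, 6 were tested. Sry, Sox1 and Sox14 had 0 counts in every library, which allows up to 3 counts per library, and Sox2, Sox3, Sox15, Sox21 and Sox30 had 10 to 51 counts in all. Sox10, the SoxE gene of glia, was at 8.35, 11.3 and 7.04 CPM in control and 19.8, 6.28 and 19.1 CPM in mutant libraries (log2 fold change 0.76, 95% interval -0.14 to 1.65, unadjusted p = 0.0898 from edgeR). Mutant replicates 1 and 3 stood above all controls and mutant replicate 2 below them. The 7 markers of myelinating glia summed to 228 to 1630 CPM in control and 910 to 3495 CPM in mutant libraries, mostly Mbp, with Pmp2 at 0, and their part in the Sox10 values was not tested.

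Sox12 of the SoxC group had a log2 fold change of -0.25 and Sox13 of the SoxD group one of 0.48 (unadjusted p = 0.0908 from edgeR). Sox13 spans 42.1 kb and, unlike Sox5 and Sox6, was at 10.4 CPM in control replicate 3 and 19.6 CPM in mutant replicate 1. The SoxF genes Sox7, Sox17 and Sox18, known from endothelium, had log2 fold changes of 1.44 (95% interval -0.13 to 3.01, on 4 to 47 counts per library), 0.14 and 0.25. The 8 endothelial markers summed to 295, 166 and 183 CPM in control replicates 1, 2 and 3 and 232 to 272 CPM in mutant libraries. Of these markers 6 had values above 0 and 0 had an unadjusted p under 0.05 in edgeR, beside 7.21% of all genes. Their part in the SoxF values was not tested. Of the 6 other Sox genes tested, 5 had values above 0, with a median of 0.37 beside a median of -0.01 over all genes. With edgeR 0 passed 0.05 adjusted and 0 unadjusted, beside 7.21% of all genes unadjusted, and with DESeq2 0 passed adjusted and 2, Sox2 and Sox7, unadjusted, among 11. The unadjusted count in edgeR depended on the setting, as it did over all genes. Over all genes it was 1164 of 16152 in edgeR, 1601 with DESeq2 and 2276 without the filter. There it was 1002 with the replicate block and 618 to 2427 with 1 library left out. The fits with DESeq2 or without the filter took in every gene with a count, and those with 1 library left out were filtered anew. Their counts are therefore not shares of the 16152 genes. For the other Sox genes the unadjusted count was 4 of 11 without the filter on low counts (Sox2, Sox7, Sox10 and Sox21). With the replicate number as a block it was 1 of 6 of them (Sox7). With 1 library left out it was 0 to 2, namely Sox2 and Sox7 without control replicate 1, Sox2 without control replicate 2 or mutant replicate 3, and Sox10 and Sox13 without mutant replicate 2. No adjusted p was under 0.05 in these fits. Without control replicate 3 and mutant replicate 1 together the median was 0.094.

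The genes that SOX9, with SOX5 and SOX6, is known to activate in cartilage were read from a list of 19, all of which were tested. Of these, 18 had a log2 fold change below 0 and 1, Col2a1, above 0, with a median of -0.29 beside -0.01 over all genes. Col2a1 was at 109121, 112181 and 62708 CPM in control and 124063, 98509 and 119256 CPM in mutant libraries. Its lowest value was in control replicate 3, and control replicates 1 and 2 lay within the range of the mutants. None had an adjusted p under 0.05 with edgeR or DESeq2, and 5 were under 0.05 without adjustment in edgeR, all with lower values in mutant IVDs, compared with 4.32% of all genes in that direction. Unadjusted DESeq2 values were under 0.05 for the same 5 genes, and over all genes for 1601 in either direction against 1164 in edgeR. DESeq2 took in every gene with a count, so these counts over all genes are not shares of the same total. The groups did not overlap for 5 of the 19, compared with 11.4% of all genes. These are not the same 5 genes. They include Hapln1 (unadjusted p = 0.137 from edgeR) but not Col9a2, at 3174 CPM in mutant replicate 1 and 3145 CPM in control replicate 3. Earlier results of these data on Col2a1, Col9a2, Col9a3 and Acan were known when the list was written, so that it is not independent evidence of a direction. The lowest adjusted p of the list was 0.676 with edgeR and 0.0638 with DESeq2.

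Markers of other cell types also differed in level between these libraries. All 8 neutrophil precursor markers had a log2 fold change above 0, 2 of them at an unadjusted p under 0.05 in edgeR, compared with 7.21% of all genes (2.89% higher in mutant), and they summed to 16.2 to 59.3 CPM in controls against 32.7 to 153 CPM in mutants. Of 8 red blood cell precursor markers 6 were tested, all 6 with values above 0 and 2 at an unadjusted p under 0.05, with sums of 5.44 to 25.5 CPM in controls against 22.4 to 63.8 CPM in mutants. Of the 6 tendon and outer annulus markers 5 had values above 0 and 2 an unadjusted p under 0.05, with sums, mostly Fmod, of 2889 to 4219 CPM in controls against 3775 to 5331 CPM in mutants. The sums of these 3 lists overlapped between genotypes. The skeletal muscle markers went the other way, with 0 of 8 above 0 and 7 at an unadjusted p under 0.05, and this direction rests on control replicate 1, at a sum of 4042 CPM. Control replicates 2 and 3, at 256 and 198 CPM, lay below all mutant libraries, at 268 to 284 CPM. Of the 6 osteoblast markers 3 had values above 0 and 2 an unadjusted p under 0.05, with sums of 767 to 1216 CPM in controls and 870 to 1133 CPM in mutants. For all these lists their part in the values of the SOX9 targets was not tested.

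Outside the collagens, Matn3, a matrilin of the cartilage matrix, was at 689, 475 and 412 CPM in control and 408, 286 and 222 CPM in mutant libraries (log2 fold change -0.78 ± 0.28 SE, unadjusted p = 0.0178 from edgeR). All mutant values lay below all controls, with mutant replicate 1 close to control replicate 3. Snorc, a small chondrocyte membrane proteoglycan listed as 3110079O15Rik, was at 727, 999.8 and 866 CPM in control and 507, 630.3 and 609 CPM in mutant libraries (log2 fold change -0.57, unadjusted p = 0.0234 from edgeR). Ucma, a secreted cartilage protein, was at 781, 1180.4 and 917 CPM in control and 677, 619 and 641 CPM in mutant libraries (log2 fold change -0.57, unadjusted p = 0.0269 from edgeR). Both genes were lower in all mutant libraries than in all controls. With 1 library left out the unadjusted p rose to as much as 0.0810 for Matn3, 0.104 for Snorc and 0.115 for Ucma, and without mutant replicate 3 none of the 19 had an unadjusted p under 0.05.

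Acan (log2 fold change -0.29), Comp (-0.40), Hapln1 (-0.38) and Cnmd, listed as Lect1 (-0.24), had intervals that include 0. Wwp2, whose gene hosts a cartilage miRNA, had a value of -0.08 and Fgfr3, a receptor that restrains chondrocyte growth, one of -0.12. Fgfr3 was at 386, 391 and 297 CPM in control and 525, 217 and 245 CPM in mutant libraries. Mutant replicate 1 thus lay above all controls and mutant replicates 2 and 3 below them. Without mutant replicate 1, and without that library and control replicate 3 together, Fgfr3 was lower in mutant IVDs at an unadjusted p under 0.05 in edgeR. The 5 genes of the list with an unadjusted p under 0.05 span 5.21 to 24.4 kb, and with the gene span trend removed 5 of the 19 again had an unadjusted p under 0.05. The mean of Sox9 itself was 512 ± 98.1 CPM over the controls and 552 ± 97.9 CPM over the mutants (SD, n = 3).

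**Figure D5:**
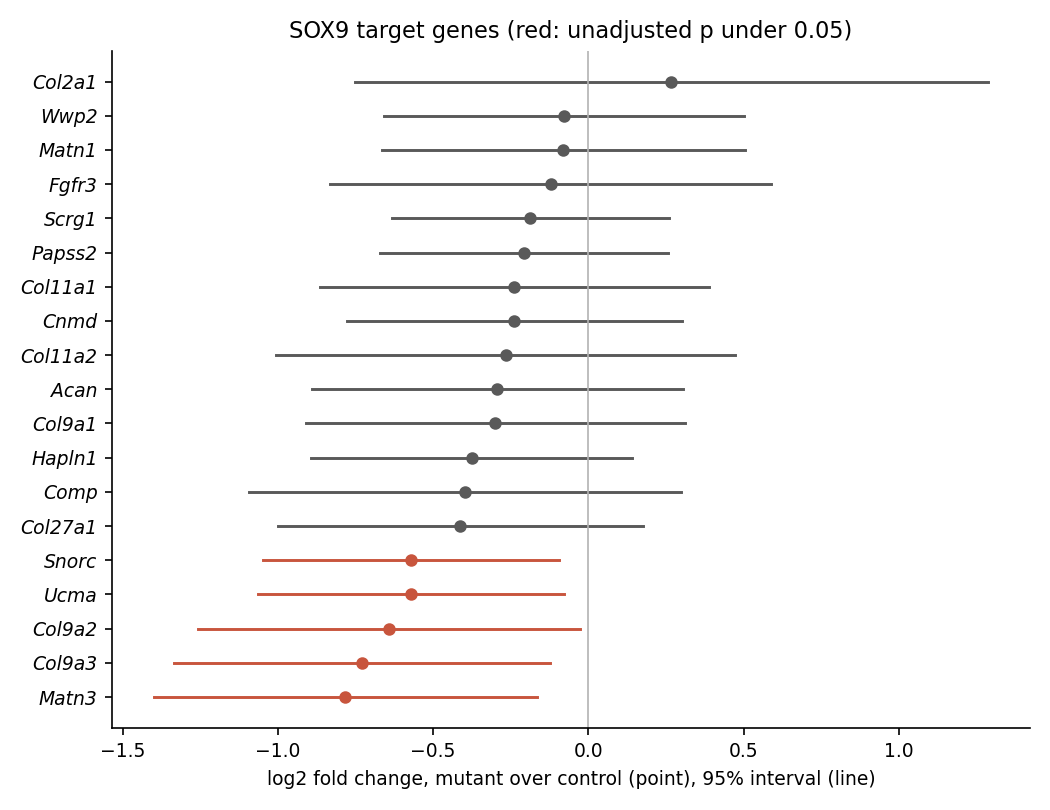
The log2 fold change of mutant over control (horizontal axis; point) with its 95% interval (line) for 19 genes known to be activated by SOX9, ordered by value, with those at an unadjusted p under 0.05 in red. Of the points, 18 lie below 0, from -0.78 for Matn3 to -0.08 for Wwp2, and Col2a1 lies above it at 0.27.

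Of 14 genes for proteins that bind, modify or act with SOX9, 10 had log2 fold changes above 0, with a median of 0.16. With edgeR 0 had an adjusted p under 0.05 and 2 had an unadjusted p under 0.05, compared with 7.21% of all genes. Ep300, a histone acetyltransferase and coactivator of SOX9, was at 23.5, 19.5 and 24.2 CPM in control and 37.0, 25.3 and 38.7 CPM in mutant libraries (log2 fold change 0.58 ± 0.20 SE, unadjusted p = 0.0172 from edgeR), above all controls in 3 of 3 mutant libraries. Ppargc1a, a coactivator of mitochondrial genes that also acts with SOX9, was at 1.61, 2.55 and 4.14 CPM in control and 0.228, 0.653 and 1.17 CPM in mutant libraries (log2 fold change -2.002, unadjusted p = 0.0170 from edgeR), on 112 counts in all. Its highest value was in control replicate 3 and its lowest in mutant replicate 1. Neither gene kept an unadjusted p under 0.05 throughout. Ep300 lost it without control replicate 2 and without mutant replicate 3, and Ppargc1a lost it when control replicate 3 was left out and when either mutant replicate 1 or 2 was. Without control replicate 3 and mutant replicate 1 together, 0 of the 14 had one. The count rose to 4 without control replicate 1 (with Med12 and Smad3). It was 3 without the filter (with Med12) and 3 with the gene span trend removed (with Smad3). Over all genes these 3 fits gave 2427, 2276 and 1218, beside 1164 in the main fit. The fits without control replicate 1 and without the filter tested other sets of genes than the main fit. Their counts are therefore not shares of the same total. Without mutant replicate 2 the genes were Ep300 and Pias1.

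The genes whose log2 CPM followed each member most closely over the 6 libraries were read from 9964 genes with a mean of at least 10 CPM (9965 for Sox11), as a description of these libraries. For Sox6 they were Dock4, Efr3a and Tbc1d5 (Pearson r 0.99 each) and for Sox5 Enox2 (0.99), Abhd6 and Esyt2 (0.98 each). The 36 genes with an r above 0.95 to Sox5 had a median span of 273 kb and the 70 to Sox6 one of 137 kb, beside 25.9 kb over all genes compared. For Sox9 the closest were Diexf (0.998), B3galt6 (0.996) and Hnrnpc (0.99), and the 60 genes above 0.95 had a median span of 22.03 kb. For Sox4 they were Mcrs1, Gpaa1 and Tor3a (0.98 each), for Sox8 Myh14, Tnfrsf21 and Smarcal1 (0.98 to 0.99), and for Sox11 Eif3f, Tppp3 and Agt (0.99 each).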

How the data were processed

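Per the labels and methods, poly(A) RNA of pooled IVDs was made into paired-end libraries with the NEBNext Ultra RNA kit, and whether strand was kept is not stated. The methods name Cutadapt, FastQC, HISAT2 and GRCm38.88, while the submitters' processing notes name STAR 2.5.3a, HTSeq and DESeq2, and counting mode and strand setting are not given in the sources used here. The authors deposited raw counts per gene symbol, 1 file per library. Their table of fold changes, p-values and scaled counts of selected genes was not used. Of the reads that entered the count, 40.4% to 44.2% were assigned to a gene and 39.4% to 43.3% to none. Reads assigned to none may include reads within a gene on its opposite strand, since the strand setting is not given. A further 0.846% to 1.05% were ambiguous and 12.0% to 18.9% not aligned. Only reads assigned to a gene entered the tests.

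The test was that of edgeR 4.0.16 under R 4.3.3 (quasi-likelihood test, TMM, filterByExpr with a count minimum of 10, genotype as the only term), with Benjamini-Hochberg adjustment over 16152 genes and a threshold of 0.05. The methods describe a Ballgown test on FPKM values, for which counts do not serve. The standard error is the log2 fold change divided by the square root of F, and 95% intervals use its degrees of freedom. CPM use TMM-scaled library sizes, and deviations are of log2(CPM + 0.5). Gene models are those of GENCODE M21 (GRCm38), found for 92.9% of symbols and 97.7% of counts. The gene span fit takes a lowess curve (fraction 0.3) per library as an offset, with a span for 98.3% of tested genes. The test was tested on simulated data. Members and lists were chosen with earlier results of these data known. Named are the members, genes of the 3 lists, and per member the 3 closest genes. Alternatives were RLE, no filter, a replicate block, DESeq2 1.42.0, each library left out, another length, and 2 added after seeing the data.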

Additional observations from a re-analysis of the deposited data

How the results depend on the processing

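Of the Sox members, 0 had an adjusted p under 0.05 in any of the 12 alternatives. With 1 library left out, the log2 fold change ranged from -0.078 to 0.048 for Sox4, -0.61 to -0.13 for Sox5, -0.92 to -0.29 for Sox6, -0.58 to -0.13 for Sox8, -0.034 to 0.23 for Sox9 and -0.46 to 0.014 for Sox11. With the gene span trend removed Sox5 turned to 0.22. Without both control replicate 3 and mutant replicate 1, Sox9 turned to -0.19 and Sox11 to 0.11, the median of the SOX9 targets moved to -0.51, that of the SOX9 partners to 0.034 and that of the other Sox genes from 0.37 to 0.094. With 1 library left out these medians ranged from -0.44 to -0.19 and from 0.12 to 0.27, and that of the other Sox genes from 0.25 to 0.67. With the longest transcript as length, Sox5 was at 33.8 and Sox6 at 24.5 CPM per kb. Sox6 and Sox8 stayed below 0 in all 12 alternatives.

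Over all genes, the 1 call at an adjusted p under 0.05 became 245 without the filter on low counts, 54 with DESeq2, 0 with the replicate block and 0 without the pair of libraries. With 1 library left out it was 31 without control replicate 1 and 0 otherwise. The 1164 genes at an unadjusted p under 0.05 became 2276 without the filter and 538 without the pair, and 618 to 2427 with 1 library left out. Deviations of libraries with the same replicate number had correlations of 0.13, -0.17 and 0.09, and those with other numbers had -0.26 to 0.18. With 3 pools per genotype these values cannot tell whether the numbers pair the libraries by litter or batch. The block changed the call of no member. The cause of these changes was not tested. Fewer libraries enter some fits, and more genes enter those with DESeq2 or without the filter. Among the members depth limits Sox11 most, with 217 counts in all.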
